A study of Mus musculus with 4 samples.

Results

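DNase-seq finds accessible DNA through the places where the nuclease DNase I cuts it, and accessible stretches inside genes, away from their ends, commonly hold enhancers, silencers and alternative start sites. The regions described here are islands of the deposited table that lie inside a protein-coding gene body and 10 to 50 kb from the nearest end of any protein-coding gene. They number 1601 of 16584 islands (9.65%, 95% exact binomial interval 9.21 to 10.1%) and make up 39.7% of the 4034 islands that lie in genes away from gene ends. They were chosen by position alone, with gene positions from RefSeq (GRCm38.p6, the assembly behind mm10), and no read count entered the choice. Exon positions were not used here, so an island called deep genic below is inside a gene but has not been checked to be intronic.

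The libraries came from lymphoid tissue inducer (LTi) cells, which belong to the group 3 innate lymphoid cells and start the formation of lymph nodes and Peyer's patches. They were sorted from Peyer's patches of C57BL/6 mice. The series holds 2 Tcf7-KO libraries (Tcf7fl/fl with a Cre transgene) and 2 Ctrl libraries (genotype Tcf7+/+). In Tcf7-KO mice the Cre recombinase deletes Tcf7, the gene of the transcription factor TCF-1, in the cells that express the transgene, which need not be LTi cells alone. The sort took cells with CD127 and CCR6 on their surface and without lineage markers, KLRG1, NK1.1 and NKp46, and ages are not given in the labels. Each island has 1 peak-side and 1 control-side read count, and neither header nor label ties a side to a genotype, so the genotypes were not compared and there are no replicate values. The fold below is a ratio deposited by the authors, peak-side reads over 0.345 times the control-side reads, and an island is called when its deposited FDR is under 0.05. The deep genic islands held 25815 peak-side reads, 6.07% of those in all islands, on 3.31 Mb. Intervals of folds and of islands per Mb cover counting error only. Those of medians and shares treat islands as independent draws, although all islands come from the same libraries. None covers differences between libraries, and no molecular identifiers separate copies of 1 molecule among the reads.

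Islands were counted at marker genes of the labelled cell type and of other cells. Of 11 LTi marker genes, 10 had an island inside the gene or up to 1 kb away, and Ccr6 had none. The shares were lower in the marker lists of other cells, with islands at 7 of 18 T cell genes, 6 of 16 B cell genes, 9 of 16 myeloid genes, 5 of 16 epithelial and stromal genes, 3 of 13 type 1 innate lymphoid and NK genes and 4 of 12 group 2 innate lymphoid genes. Over all 21887 protein-coding genes of the nuclear chromosomes, 52.9% had one. An island in or near a gene is not specific to a cell type, since all 20 genes of a housekeeping list had one. The lists were compiled with earlier results of these data known, so the counts are no independent check of the cell type. Islands of the table had at least 8 peak-side reads, so the lack of one at a gene can also mean fewer reads than that.

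Some deep genic islands lay over start sites that RefSeq annotates inside the gene. The sequence table holds windows of 250 bases before to 50 bases after such sites, and of the 1538 deep genic islands on chromosomes it covers, 257 (16.7%, 14.9 to 18.7%) overlapped a window. In 224 of them the window belonged to the host gene itself, in 220 host genes or pairs of overlapping hosts. The other 33 overlapped windows of long non-coding RNA genes alone. The share was 76.5% (75.6 to 77.4%) for the 9004 gene-end islands on the same chromosomes, where a gene-end island lies within 1 kb of a protein-coding gene end, and 11.9% (9.38 to 14.9%) for islands over 50 kb deep in genes. Gene-end islands are defined by nearness to annotated gene ends, where start windows lie, and deep genic islands by distance from them. The contrast between these classes thus follows largely from their definitions.

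The windows that lay wholly inside a deep genic island in host genes of the LTi identity and lymphoid transcription factor lists are printed. They are examples of annotated internal starts of lineage genes that lay under an island. The islands are wider than the windows, so whether a start site itself was open was not tested. The set is not complete, since a window only partly inside its island, as in Satb1, and islands not looked up are left out. The printed windows are RefSeq sequences of GRCm38.p6, read 5′ to 3′ on the strand of the gene, and capitals mark the motifs searched.
Runx3, chr4:135152295-135152594, plus strand: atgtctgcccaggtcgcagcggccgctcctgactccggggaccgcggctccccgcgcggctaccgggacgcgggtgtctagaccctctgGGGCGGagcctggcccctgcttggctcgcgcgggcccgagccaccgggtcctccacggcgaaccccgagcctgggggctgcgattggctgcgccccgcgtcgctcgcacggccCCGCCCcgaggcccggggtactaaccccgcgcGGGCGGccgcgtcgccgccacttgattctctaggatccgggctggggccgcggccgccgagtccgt
Il1r1, chr1:40266336-40266635, plus strand: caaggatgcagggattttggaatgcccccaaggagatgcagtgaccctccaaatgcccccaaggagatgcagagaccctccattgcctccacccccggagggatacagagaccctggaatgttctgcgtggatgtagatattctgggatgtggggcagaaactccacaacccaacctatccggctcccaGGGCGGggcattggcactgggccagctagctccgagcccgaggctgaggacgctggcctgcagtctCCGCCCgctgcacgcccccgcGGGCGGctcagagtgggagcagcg
Nfatc2, chr2:168590316-168590615, minus strand: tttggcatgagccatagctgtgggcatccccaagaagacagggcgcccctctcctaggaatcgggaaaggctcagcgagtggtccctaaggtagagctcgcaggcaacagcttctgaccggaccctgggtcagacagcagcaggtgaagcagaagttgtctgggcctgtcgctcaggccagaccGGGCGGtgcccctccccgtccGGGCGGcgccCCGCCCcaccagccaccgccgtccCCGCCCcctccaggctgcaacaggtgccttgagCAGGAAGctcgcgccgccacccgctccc
Mef2c, chr13:83523406-83523705, plus strand: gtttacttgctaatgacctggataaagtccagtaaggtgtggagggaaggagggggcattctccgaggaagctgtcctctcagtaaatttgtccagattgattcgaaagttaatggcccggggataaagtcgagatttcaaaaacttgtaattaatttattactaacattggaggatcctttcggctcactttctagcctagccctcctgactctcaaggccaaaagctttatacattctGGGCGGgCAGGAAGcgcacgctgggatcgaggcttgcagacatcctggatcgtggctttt
Elf1, chr14:79515424-79515723, plus strand: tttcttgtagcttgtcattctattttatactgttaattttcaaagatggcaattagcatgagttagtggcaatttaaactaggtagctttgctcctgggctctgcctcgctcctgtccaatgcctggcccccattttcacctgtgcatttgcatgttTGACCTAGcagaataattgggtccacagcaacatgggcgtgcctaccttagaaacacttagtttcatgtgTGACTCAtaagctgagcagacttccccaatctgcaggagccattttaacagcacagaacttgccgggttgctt

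The first of these is an internal start of Runx3, a RUNX transcription factor of cytotoxic and innate lymphocytes, 31.9 kb from the gene's 5′ end. It holds 45 CpG dinucleotides and is 77.3% G and C, and its island had 32 peak-side and 41 control-side reads. The Il1r1 window, 44.1 kb into the gene of the interleukin-1 receptor, holds 14 CpGs under an island of 27 and 23 reads. Nfatc2, a calcineurin-regulated factor, has its window 11.3 kb from the 5′ end with 20 CpGs and 19 and 34 reads. The windows of Mef2c, a MADS-box factor, and Elf1, an ETS factor, hold 10 and 3 CpGs and lay under islands of 17 and 25 and of 13 and 21 reads. The 5 windows thus ran between CpG-rich and CpG-poor. Their islands differ in width and were picked after their values were seen, so read counts are not compared with CpGs.

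Across all 343 distinct windows under deep genic islands, the median was 18 CpGs (interquartile range 7 to 29), against 23 (16 to 31) in 9671 windows under gene-end islands and 7 (3 to 20) in all 32817 windows. Windows with 5 CpGs or fewer made up 18.7% under deep genic islands, against 2.91% under gene-end islands and 43.6% of all. Motifs were searched as exact letters on both strands. The GC box (GGGCGG), bound by SP and KLF factors, was in 59.2% of the windows under deep genic islands, against 70.7% under gene-end islands and 35.6% of all windows. The ETS motif (CAGGAAG) was in 16.9%, against 10.9% and 13.3% in these 2 sets. The RUNX motif (TGTGGTT) was in 4.37%, against 3.21% and 5.27%, and the AP-1 motif (TGANTCA) in 4.37%, against 3.598% and 7.81%. The TCF/LEF motif (CTTTGAT) was in 1.17%, on 4 windows, against 2.35% and 3.73%. The ROR motif (NTAGGTCA) and the NF-kB motif (GGGANTTCC) were in 2.04% and 2.33%, on 7 and 8 windows. Matches are descriptions of letters, some motifs can overlap in a window, and differences on so few windows are not read further.

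In width, deep genic islands were much like gene-end islands, while they held fewer reads. The median width was 2000 bp in both classes (interquartile range 1200 to 2800 bp for 1601 deep genic and 1400 to 2800 bp for 9233 gene-end islands), and the exact 95% intervals of the medians, 1800 to 2000 bp and 2000 to 2000 bp, met. The shortest islands were more common among the deep genic ones, since 80 of them (5.00%) were 400 bp or shorter, against 129 gene-end islands (1.40%). The median peak-side count was 13 (11 to 18), against 23 (16 to 34) at gene ends, and the median control-side count was 16 (11 to 25), against 37 (25 to 54). Per length, the medians were 7.78 peak-side reads per kb for deep genic islands and 12.3 for gene-end islands, and the exact 95% intervals of these medians, 7.50 to 8 and 12.1 to 12.5, did not overlap. Of the deep genic islands, 30.9% had 8 to 11 peak-side reads and 5.87% had 30 or more, against 8.35% and 32.9% of the gene-end islands.

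**Figure D1:**
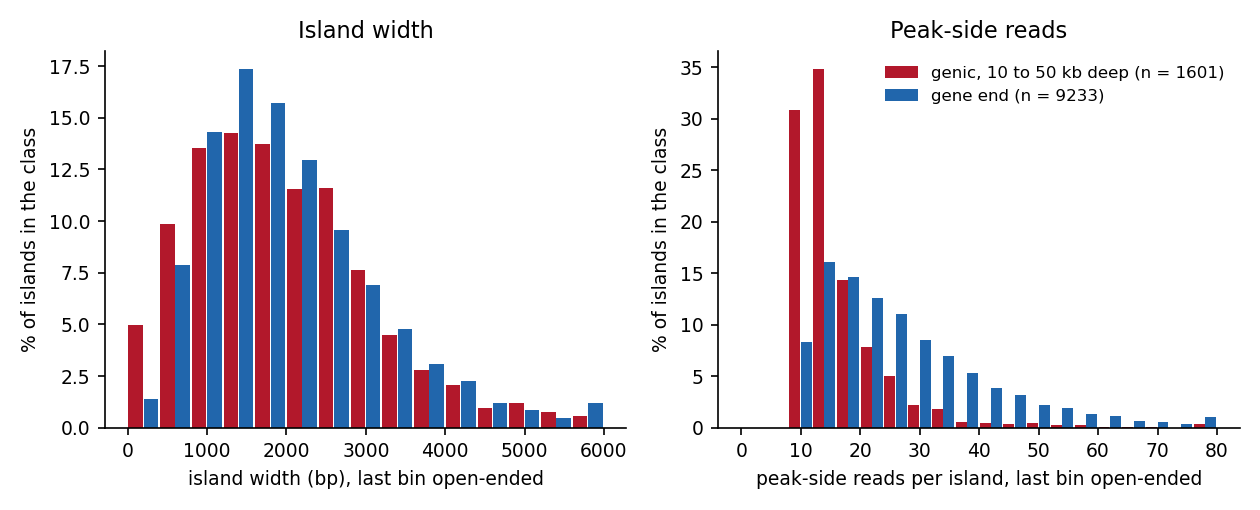
Shares of islands by width (left, bp) and by peak-side reads (right), for deep genic islands (red, n = 1601) and gene-end islands (blue, n = 9233), each bar a percentage of its class. The width distributions overlap over most of their range, while the read counts of deep genic islands gather near the lowest values, with a median of 13 against 23.

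At a given read count the deep genic islands were the wider ones. Among islands with 12 to 17 peak-side reads the median width was 2000 bp (683 deep genic islands), against 1600 bp (2201 gene-end islands), and with 18 to 29 reads it was 2600 bp against 2000 bp. With 8 to 11 reads it was 1400 bp against 1200 bp, and with 30 or more it was 2800 bp (94 islands) against 2400 bp (3036 islands). In each class of reads the medians of the deep genic islands were thus 200 to 600 bp higher. Width and peak-side reads rose together across the 1601 deep genic islands (Spearman rho 0.491) and across the 9233 gene-end islands (rho 0.394), a description over islands that share the same libraries. The same contrast of reads held against the gene-end islands of the host genes themselves, 748 islands with a median of 24.5 peak-side reads and a median width of 2400 bp.

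Deep genic islands had higher folds than gene-end islands. Their median was 2.45 (quartiles 1.86 and 3.43), against 1.86 (1.54 to 2.27), with exact 95% intervals of the medians of 2.42 to 2.52 and 1.85 to 1.87. With all reads of a class pooled, the folds were 2.24 (2.20 to 2.27) and 1.83 (1.82 to 1.84), and their ratio was 1.22 (1.20 to 1.24), which does not depend on how the control side is scaled. Called islands made up 87.1% of the deep genic islands (1395, 85.4 to 88.7%), against 80.8% of gene-end islands (79.9 to 81.6%), where 82.3% of all islands were called. The share called thus lay near the background, a little above it. The contrast with gene-end islands changed with read count. At 8 to 11 peak-side reads 83.8% of deep genic and 56.9% of gene-end islands were called. At 30 or more the shares were 92.6% (85.3 to 97.0%) and 96.0% (95.3 to 96.7%). A fold under 1 was found in 16 deep genic islands (0.999%, 0.572 to 1.62%) and in 164 gene-end islands (1.78%), against 1.67% of all islands. Which libraries stand on either side is not stated, so these folds are not read as a difference between genotypes.

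The difference in fold went with read count and with start sites. Among islands of 8 to 11 peak-side reads the median fold was 2.64 for deep genic and 1.81 for gene-end islands, and among those with 30 or more it was 2.07 and 1.92. Deep genic islands over a start window had a median fold of 1.99 (interquartile range 1.58 to 2.62, 257 islands) and a median of 19 peak-side reads, whereas those over none had 2.61 (1.96 to 3.63, 1281 islands) and 13 reads. Their pooled folds were 1.92 (1.85 to 1.99) and 2.36 (2.31 to 2.404), and the first lies above the 1.82 (1.81 to 1.83) of gene-end islands over a start window. The order held among islands of like read count up to 29 reads, with medians of 2.07 against 2.66 at 8 to 11 reads, 1.89 against 2.56 at 12 to 17 and 1.96 against 2.49 at 18 to 29. With 30 or more reads (46 and 41 islands) the medians were 2.00 and 2.42, but the pooled folds were 1.95 (1.84 to 2.07) and 1.80 (1.70 to 1.91), in the opposite order. The 41 islands over none held 2960 control-side reads, of which 439 lay in Cdk8 and 411 in Filip1l. The folds of those islands were 0.984 and 0.755, and the order of the pooled folds leans on them. Gene-end islands over no window had a median fold of 1.93.

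**Figure D2:**
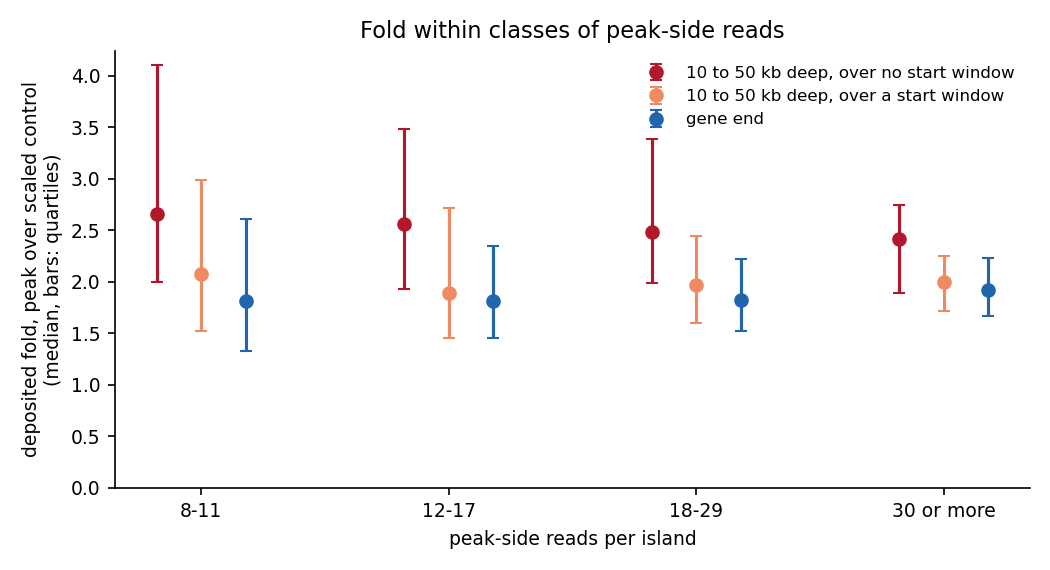
Deposited fold (points, medians, with bars for the quartiles) in 4 classes of peak-side reads, for deep genic islands over no RefSeq start window (dark red), deep genic islands over one (orange) and gene-end islands (blue). In each class the first set has the highest median, between 2.42 and 2.66, and the orange points lie between 1.89 and 2.07.

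Islands became sparser with depth into genes, without a step at either bound of the 10 to 50 kb band. Counted by midpoint, genic islands numbered 126 per Mb within 1 kb of a gene end (95% Poisson interval 122 to 129), 6.76 (6.30 to 7.24) at 5 to 10 kb, 5.31 (4.83 to 5.82) at 10 to 15 kb, 4.99 (4.47 to 5.56) at 15 to 20 kb, 4.52 (4.11 to 4.96) at 20 to 30 kb, 4.001 (3.55 to 4.50) at 30 to 40 kb and 3.29 (2.83 to 3.82) at 40 to 50 kb. Over 100 kb deep the density was 0.917 (0.792 to 1.06). Over the whole band it was 4.51 islands per Mb inside genes (4.30 to 4.73, on 376 Mb), against 3.54 (3.36 to 3.73, on 397 Mb) between genes at the same distance. At 10 to 15 kb the inside and outside densities could not be told apart (5.31 and 5.12, 4.64 to 5.63 for the second), whereas in each of the 4 deeper classes the genic density was higher with no overlap of intervals, as at 20 to 30 kb (4.11 to 4.96 and 2.90 to 3.61).

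**Figure D3:**
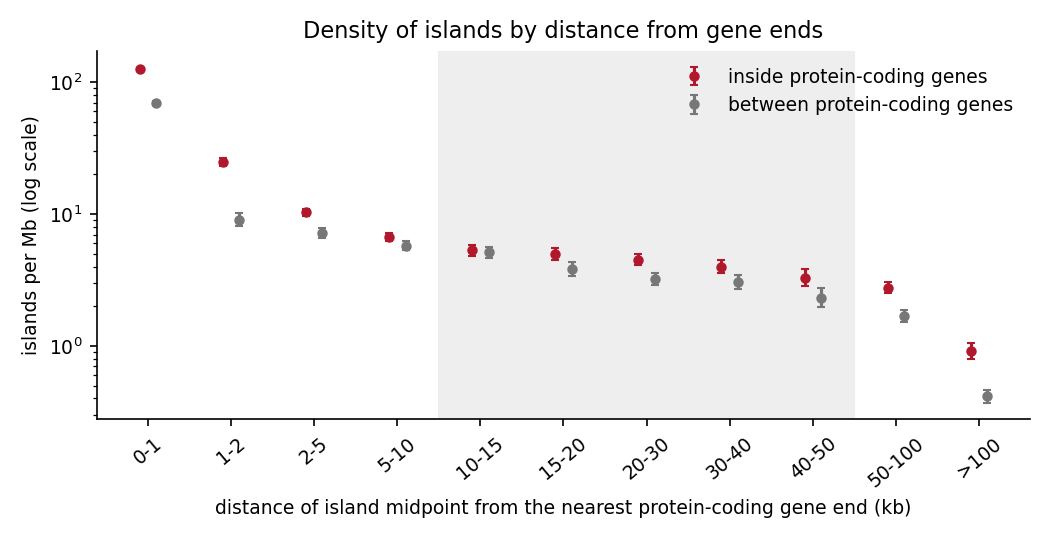
Islands per Mb of sequence (log scale, exact Poisson 95% intervals) by distance of the island midpoint from the nearest protein-coding gene end, inside genes (red) and between genes (grey), with the 10 to 50 kb band shaded. Density falls across the band inside genes, with 5.31 per Mb at 10 to 15 kb and 3.29 at 40 to 50 kb.

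Within the band, depth made little difference to the width and reads of the islands. The median depth was 21.2 kb (interquartile range 14.7 to 31.7 kb). The median width was 1800 bp in the 417 islands at 10 to 15 kb and 2000 bp in each deeper class, and the median peak-side count was 14 up to 20 kb and 13 beyond. The median fold ran from 2.39 at 10 to 15 kb to 2.68 at 30 to 40 kb (278 islands) and was 2.42 at 40 to 50 kb (179 islands), with no steady course. At the lower bound islands just inside the band, in Psap and Nbeal2, had 13 and 12 peak-side reads, and those just outside, in Mcur1, Bach2 and Sh3tc1, had 13, 46 and 12. At the upper bound those just inside, in Pcgf5, Abcb1a and St6gal1, had 27, 11 and 10, and those just outside, in Atxn7, Apbb1ip and Mbp, had 26, 20 and 12.

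More deep genic islands lay on the 5′ side of their host than on the 3′ side. For 1122 islands with 1 host of known strand whose own end was the nearest one, 630 were nearer to the 5′ end and 492 to the 3′ end (56.1%, 53.2 to 59.1%), while the sequence available in these hosts was split almost evenly (49.99% nearer to the 5′ end). Counted once per host gene, 426 genes leaned to the 5′ and 335 to the 3′ end (56.0%, 52.4 to 59.5%). Among islands over a start window the share was 66.1% (59.4 to 72.3%), and among those over none it was 53.8% (50.4 to 57.0%), just above an even split. Reads hardly differed by side, with medians of 14 and 13.

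The islands were spread over many hosts. They lay in 1145 genes, which is 11.6% of the 9886 protein-coding genes with any sequence in the band, and 8 islands lay in 2 overlapping genes. A single island was found in 850 hosts, 2 in 179, 3 in 82 and 4 or more in 34, which together held 155. Hosts were longer than other genes with sequence in the band, with a median length of 86.8 kb, against 49.95 kb over all 9886. An island at a gene end of the host was present in 695 of the 1145 hosts (60.7%, 57.8 to 63.5%), against 4610 of the 8741 other genes (52.7%, 51.7 to 53.8%). Among genes with 40 to 80 kb in the band the shares were 59.7% (56.1 to 63.3%) and 48.9% (47.1 to 50.6%), and among those with 10 to 40 kb they were 60.9% (55.2 to 66.3%) and 56.6% (54.8 to 58.4%), which overlap. The remaining hosts had islands inside the gene and none at its annotated ends.

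Adaptors, signalling genes and transcription regulators were among the 12 hosts with the most islands. Pxn, which encodes the focal adhesion adaptor paxillin (chromosome 5, 115491970 to 115555987), had 6 islands with 12, 14, 23, 25, 26 and 16 peak-side reads in order of position and folds between 0.892 and 2.39. The pooled fold of Pxn was 1.58 (1.25 to 1.99). Of its 6 islands 4 were called, where 87.1% of all deep genic islands and 82.3% of all islands were. The outermost islands of Pxn had folds just under 1.

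Fnbp1, which encodes a membrane-bending F-BAR protein (chromosome 2, 31026206 to 31145454), had 6 islands with 12, 44, 10, 17, 13 and 15 reads. The island with the most reads lay at 31060401 to 31065200, where the fold was 3.65 (2.29 to 5.86) on 44 peak-side and 35 control-side reads. Smad3, a transducer of TGF-beta signals (chromosome 9, 63646766 to 63757994), had 6 islands with 12, 27, 22, 10, 23 and 14 reads, all within the stretch from 63716201 to 63743000, and a pooled fold of 2.18 (1.68 to 2.81). The islands of Smad3 thus filled 1 side of the gene, at depths of 14.99 to 40.6 kb.

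Vgll4, a cofactor of TEAD transcription factors (chromosome 6, 114860621 to 114970007), had 6 islands, of 22, 11, 21, 12, 20 and 19 reads, at a pooled fold of 2.26 (1.73 to 2.93). All 6 were called, where 87.1% of all deep genic islands were. Irak2, a kinase of interleukin-1 and Toll-like receptor signalling (chromosome 6, 113638467 to 113695026), had 6 islands as well, with 16, 30, 13, 10, 12 and 15 reads, but only 2 were called. Its pooled fold was 1.37 (1.06 to 1.76), and 1 island (113660001 to 113663600, 13 and 59 reads) had the smallest fold of all 1601, 0.639 (0.322 to 1.18). The interval of that island reached above 1.

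Zmiz1, a transcriptional coregulator, had 6 islands, of 16, 12, 15, 15, 14 and 10 reads, at a pooled fold of 2.14 (1.59 to 2.88). The hosts with 5 islands were Itpkb, an inositol trisphosphate kinase of lymphocyte signalling, with 103 peak-side reads, Il1r1 with 100, the GTPase-activating protein gene Arhgap23 with 77, the class I myosin gene Myo1e with 74, Nfatc1, a calcineurin-regulated factor, with 73, and Galnt2, which starts O-linked glycosylation, with 71. Per 100 kb of sequence in the band, among hosts with 4 or more islands, the order changed: Irak2 came first with 16.4 islands, then Pxn with 13.6, the Polycomb gene Cbx7 with 12.1 and Ccdc12 with 10.7, and 6 of the 12 hosts remained among the first 12. All 12 hosts with the most islands also had an island at a gene end.

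**Figure D4:**
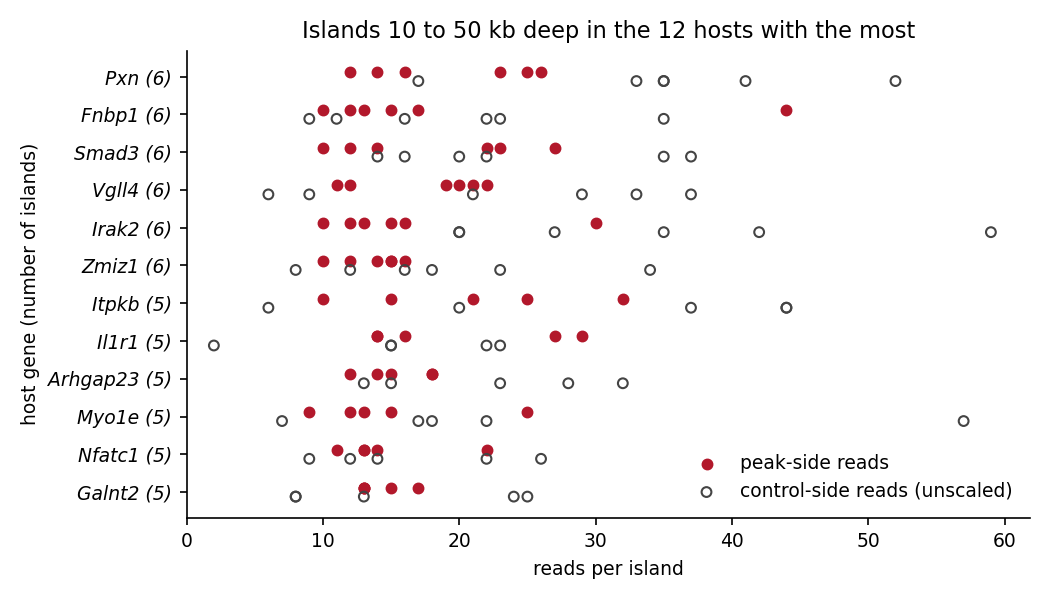
Reads of each deep genic island in the 12 host genes with the most such islands, with peak-side reads as filled red points and unscaled control-side reads as open circles (islands with equal counts overlap). Peak-side reads run from 9 to 44, and control-side reads reach 59 in Irak2.

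By reads, the first hosts, down to Cdk5rap2, rested mostly on 1 large island each. Those that followed had 5 or 6 islands each and are named above: Pxn (116 reads), Fnbp1 (111), Smad3 (108), Vgll4 (105), Itpkb (103), Il1r1 (100) and Irak2 (96). Cdk8, which encodes a kinase of the Mediator complex, had the most, 149 peak-side and 439 control-side reads in 1 island (chromosome 5, 146260201 to 146261600), with a fold of 0.984 (0.812 to 1.19). The overlapping genes Cmss1 and Filip1l shared an island of 107 and 411 reads (chromosome 16, 57390801 to 57391800) with a fold of 0.755 (0.605 to 0.936). Cdk5rap2, a centrosome gene, had 117 and 172 reads in 1 island (chromosome 4, 70378201 to 70379400) with a fold of 1.97 (1.55 to 2.51). Smo, the Hedgehog signal transducer, had 89 and 214 reads in 1 island, with a fold of 1.21 (0.931 to 1.55). These 4 islands were narrow, 1000 to 1600 bp, and held 107, 106, 97.5 and 55.6 peak-side reads per kb in Filip1l, Cdk8, Cdk5rap2 and Smo, where the median deep genic island held 7.78. None of the 4 overlapped a start window, and the part of mapping or copy number in these counts was not tested.

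The next islands by reads lay in Impact, a regulator of translation (79 and 125 reads), Iffo2, an intermediate filament family gene (77 and 105), Srrm2, a splicing factor gene (70 and 103), Stag1, a cohesin subunit gene (67 and 102), Nr3c1, which encodes the glucocorticoid receptor (62 and 127), and Arntl, which encodes the clock factor BMAL1 (57 and 78). Those of Iffo2, Srrm2, Stag1 and Arntl lay over a start window of the host itself, with folds between 1.91 and 2.13. Those of Impact and Nr3c1 lie on chromosome 18 and were not looked up. Iffo2 had 122 peak-side reads in 4 islands and no island at its annotated gene ends.

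Among islands with at least the median number of reads, the 6 largest called folds rested on 2 or 3 control-side reads. Ybx3, a cold shock domain gene, had a fold of 24.7 (5.85 to 220) on 17 and 2 reads (chromosome 6, 131377601 to 131378200). In Il1r1 the fold was 23.2 (5.46 to 208), on 16 and 2 reads. Shisal1 followed with 13 and 2 reads (18.9, 4.27 to 172), and Gnb1l, Stk10, a lymphocyte kinase gene, and Plod2, a lysyl hydroxylase gene, had 13 and 3 reads each (12.6, 3.45 to 68.8). Their intervals overlap widely, so the order among them is not resolved at this depth. Other small folds at such read counts were those of Filip1l, Plec (17 and 62, 0.795), Arhgef2 (14 and 50, 0.812) and Pxn (16 and 52, 0.892).

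Genes of LTi and other group 3 innate lymphoid cells held deep genic islands densely. Of 23 such genes, 17 have sequence in the band and 11 of these held an island (64.7%), against 11.6% of all genes with sequence in the band. Their 23 islands came to 32.5 per Mb of that sequence (20.6 to 48.8), against 4.22 (4.02 to 4.44) over all protein-coding genes. Lists were compiled with earlier results of these data known, genes can stand on more than 1 list, and the counts describe the lists without a test.

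Il1r1, through which interleukin-1 acts on group 3 innate lymphoid cells, had 5 islands, of 16, 14, 27, 14 and 29 peak-side reads, at a pooled fold of 3.77 (2.77 to 5.14), all called. Tox2, an HMG-box factor, had 4 islands with 19, 11, 11 and 18 reads, also all called, and a pooled fold of 4.07 (2.70 to 6.20). Since 87.1% of all deep genic islands were called, calls in each of so few islands do not set these genes apart. Runx3 had 3 side by side, with 32, 14 and 17 reads, the first over the internal start printed above, and a pooled fold of 1.79 (1.29 to 2.48). The folds of Runx3 and Tox2 thus have intervals that do not overlap.

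Kit, the stem cell factor receptor, had 2 islands, of 16 and 27 reads, whose folds were 4.22 (1.84 to 10.1) and 1.82 (1.08 to 3.02). Ret, the receptor of GDNF family ligands, had 2 islands, of 21 and 10 reads, whose folds were 10.2 (3.96 to 30.7) and 2.90 (1.08 to 7.76). Zbtb16, which encodes PLZF, a factor of innate lymphoid precursors, had 2 with 14 and 11 reads. Rora, a nuclear receptor gene, had 1 island of 28 and 11 reads with a fold of 7.38 (3.56 to 16.4), 46.8 kb from the nearest gene end. Tcf7 had 1 at a fold of 3.96 (1.70 to 9.52), on 15 and 11 reads, and Gata3 and Nrp1 had 1 each with 14 and 11 reads on the peak side. None of the 4 genes with sequence in the band among 15 cytokine and TNF ligand genes of LTi cells held one, on 0.0241 Mb of such sequence in all, which allows up to 153 per Mb.

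Transcription factors of lymphocytes also held such islands. Of 38 factor genes with sequence in the band, 19 held an island (50%), with 38 islands and 14.8 per Mb (10.4 to 20.3). Nfatc1 had 5 islands, of 13, 22, 14, 11 and 13 reads, at a pooled fold of 2.55 (1.84 to 3.54). Ets1, a founding ETS factor, had 4 with 11, 19, 14 and 16 reads. Of these 2 were called, where 87.1% of all deep genic islands and 82.3% of all islands were. Nfatc2 had 3 islands. The one at 168497601 to 168507200 on chromosome 2 was 9600 bp wide, the widest of all deep genic islands, with 50 and 71 reads. Foxp1, a forkhead factor, had 1 island at a fold of 5.08 (2.85 to 9.28), on 35 and 20 reads. Stat4 and Stat5b, which carry cytokine signals to the nucleus, had 3 each, and Mef2c, Runx1, Elf1 and Fli1 had 2 each.

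The list of cytokine receptors, STATs and SOCS genes held 19 islands in 7 of 23 genes with sequence in the band, 25.6 per Mb (15.4 to 39.998), of which Il1r1, Stat4 and Stat5b are also on the lists above. Tgfbr2, a TGF-beta receptor gene, had 3 islands, of 19, 10 and 13 reads, at a pooled fold of 3.81 (2.35 to 6.23). Il2ra, the high-affinity interleukin-2 receptor chain, had 3 with 12, 15 and 10 reads, and Il2rb had 1 with 41 and 63 reads. Among receptor signalling and adaptor genes, 16 of 40 held 30 islands, 10.2 per Mb (6.87 to 14.5). Plcg2 and Inpp5d, a phospholipase and a phosphatase of immune receptor signalling, had 3 each, and the pooled folds were 2.72 (1.87 to 3.94) in Plcg2 and 3.01 (2.03 to 4.48) in Inpp5d. Dock10, an activator of small GTPases, had 2 islands, 22 and 7 reads in all, at a pooled fold of 9.12 (3.76 to 25.3), and Prkch, a protein kinase C gene, had 2 with 27 and 13 and 6.02 (3.003 to 12.7).

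Among chromatin regulators, 13 of 35 genes held 24 islands, 9.68 per Mb (6.20 to 14.4). Kdm2b, a histone demethylase, had 3 islands with 64 and 102 reads. Hdac4, a class IIa deacetylase, had 1 over its own start window at a fold of 1.21 (0.871 to 1.67), on 56 and 134 reads, which was not called. In the TCF/LEF and Wnt list, 6 of 19 genes held 8 islands, 7.50 per Mb (3.24 to 14.8), an interval that includes the value of all genes. Lef1, the closest relative of Tcf7, had 1 at a fold of 3.18 (1.68 to 6.03), on 23 and 21 reads, and Tcf7l2 and Znrf3, a Wnt receptor ligase, had 2 each. Adhesion and migration genes held 6 islands in 6 of 16 genes, 8.02 per Mb (2.94 to 17.4).

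Long neural and adhesion genes were at the other end. All 30 have sequence in the band, 2.99 Mb together, but only Sorcs2 held an island (30 and 36 reads), which is 0.334 per Mb (0.00846 to 1.86), below the value of all genes. Immediate early and housekeeping genes, each of which had an island in or near the gene, had none in the band, where only 4 of 18 and 5 of 20 have any sequence, which allows up to 142 and 86.1 per Mb. Markers of other cells had 1 to 3 islands a list: Cd247 (2 islands) and Lck among T cell genes, Pax5 and Blk among B cell genes, Zbtb46 (2) and Spi1 among myeloid genes, Pecam1 (2) among epithelial and stromal genes, Itga2 among NK genes and Gata3 among group 2 genes. The Lck island (9 and 4 reads) lay over an internal start window of Lck. The intervals of all 6 marker lists include the value of all genes, but they rest on 1 to 3 islands each. All but that of the B cell genes, which ends at 20.2 per Mb, also overlap the interval of the LTi and ILC3 identity list (20.6 to 48.8).

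**Figure D5:**
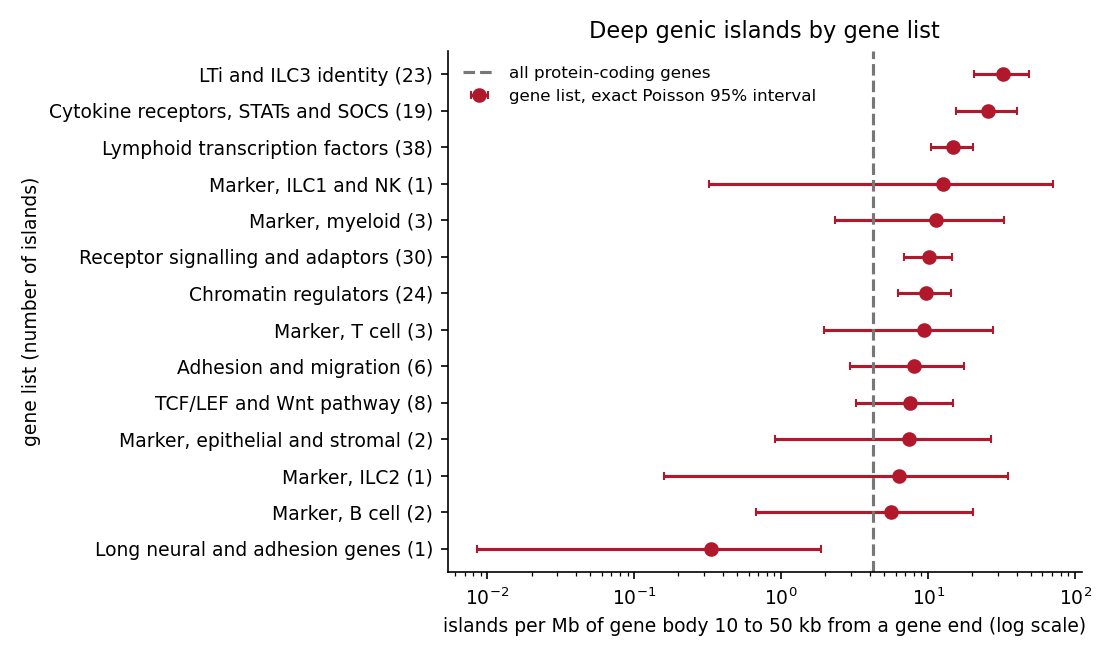
Deep genic islands per Mb of gene body in the 10 to 50 kb band (log scale, exact Poisson 95% intervals), by gene list with the number of islands in parentheses, for lists with at least 1 island. The dashed line marks all protein-coding genes at 4.22 per Mb. The LTi and ILC3 identity list has the highest point at 32.5 and the long neural genes the lowest at 0.334. The interval of the LTi list overlaps those of other lists, among them the cytokine receptors, STATs and SOCS, which also hold Il1r1.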

How the data were processed

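The authors deposited 1 table of 16584 islands with read counts, not normalized, on a peak side and a control side, a p-value, a ratio (fold) and an FDR, per the file headers. The build is mm10 and the tools include Bowtie2 2.4.2 and SICER 2.0, per the submitters' processing notes, and SICER joins enriched 200 bp windows into islands. Which libraries form each side, and whether they were pooled, is not given in the sources used here. Library totals were not used. All 16584 folds were recomputed from the counts with a factor of 0.345 and 0.25 reads in place of 0 (relative tolerance 0.0001), and p as the Poisson tail above the count in the 16307 islands with a fold over 1.

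Distances ran from the island edge to the nearest end of 21887 nuclear protein-coding genes, and 3 mitochondrial islands were left out of all classes. Placement was checked on simulated islands of known depth. Intervals are 95% exact binomial (Clopper-Pearson), Poisson or order-statistic, and no test over islands was run, since there are no replicates. Start windows on chromosome 18 were not used. Hosts named are the 12 with the most islands and the most reads, the islands are the 10 with the most reads and the 6 with the largest and the smallest folds at or above the median reads, and list genes are those with 2 or more islands or up to 4 with the most reads. Psap to Mbp flank the bounds. Tcf7, Rora and Kit were also named, and Il7r held no such island. Cbx7, Ccdc12, Foxp1, Nrp1 and the printed windows were chosen after their values were seen. Some genes these rules pick are not reported here. Regions and lists were chosen with earlier results of these data known. Alternatives were other depth bands, gene sets, read, width and FDR limits and scalings. Python 3.11.15, scipy 1.17.1 and pandas 2.3.3 were used.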

Additional observations from a re-analysis of the deposited data

How the results depend on the processing

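No paired analysis was possible because neither side of the table has a replicate number, and the comparison of Tcf7-KO with Ctrl mice was not run. The rule found 1601 islands, and 862 at 20 to 50 kb or 320 with at least 20 peak-side reads. The ratio of median widths, deep genic over gene-end, was 1.00 and became 1.11 by midpoints and 1.18 with at least 20 reads. In rising classes of reads it was 1.17, 1.25, 1.30 and 1.17. It fell under 1 against gene-end islands of the same hosts (0.833), with non-coding genes included (0.9) and at 5 to 50 kb (0.9). The ratio of median peak-side reads, 0.565, was 0.56 among called islands, 0.806 with at least 20 reads, 0.688 and 0.619 in islands under 1200 bp and of 1200 to 2000 bp, 0.542 against islands overlapping a gene end and 0.531 against those of the same hosts. The ratio of median folds, 1.32, was 1.29 at 5 to 50 kb, 1.17 with at least 20 reads, 1.45, 1.39, 1.28 and 1.08 in rising classes of reads, and 1.5 and 1.26 under 1200 bp and over 2000 bp. It stayed above 1 in the alternatives run, where both scalings of the control side leave it unchanged by construction and show nothing of its stability. The called share, 87.1%, was 94.1% with at least 20 reads, 83.8%, 93.0% and 92.6% at 8 to 11, 18 to 29 and 30 or more reads, 85.1% under 1200 bp, and 18.9% or 14.6% with the control side scaled to the summed island reads or to the median of the island ratios, which lower all folds by construction. Of the 12 hosts with the most islands, 6 were among the first 12 per 100 kb. LTi and ILC3 identity genes with an island numbered 6 at 20 to 50 kb and 5 with at least 20 reads in place of 11, lymphoid factors 7 with at least 20 reads in place of 19, and long neural genes 4 without an upper bound in place of 1. The share over a start window, 16.7%, was 12.1% with non-coding genes included among the ends, 19.0% at 5 to 50 kb, 14.4% at 20 to 50 kb and 39.1% with at least 20 reads. Depth limits the folds of single islands, which rest on a median of 13 peak-side and 16 control-side reads.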

Other observations

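Deep genic islands had near neighbours about as often as gene-end islands. The median gap to the nearest other island of any class was 15200 bp for the 1601 deep genic islands and 20000 bp for the 9233 gene-end islands, and 35.1% (32.8 to 37.5%) against 32.1% (31.1 to 33.1%) had one within 10 kb. Reads of the peak and the control side followed each other less closely across deep genic islands (Spearman rho 0.641) than across gene-end islands (rho 0.855), a description over islands of unequal depth. The X chromosome held 13 deep genic islands and chromosome 11 held 156.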
